A study of Caenorhabditis elegans with 2 samples.

Results

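The sites described here are binding sites of a tagged nematode protein that lie a short way upstream of single genes. They are the autosomal ChIP-seq peaks whose summit, the base of highest signal in a peak, fell in the promoter window of exactly 1 protein-coding gene and more than 200 and up to 500 bp upstream of that gene's nearest annotated transcript start. The promoter window of a gene covered 1000 bp before and 200 bp after each of its starts, and summits within 500 bp of a tRNA gene were left out. Of the 3291 peaks in the conservative set, 319 met the rule, which is 9.69% (Wilson 95% interval 8.73 to 10.8, counting error only). They were 32.9% (30.0 to 35.9) of the 969 autosomal summits that lay within 1000 bp upstream and 200 bp downstream of the starts of a single gene.

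The protein was followed in Caenorhabditis elegans strain RW12180, in which CRISPR had inserted a tag, giving the allele st12180[dox-1::TY1::EGFP::3xFLAG] on chromosome I. The labels name the gene dox-1 and the CRISPR target dxbp-1. Young adult worms, synchronized by bleaching and starvation as first-stage larvae, were harvested at 66 hours, and sonicated chromatin of 200 to 800 bp was pulled down with an antibody against GFP. There was 1 group of 2 biological replicates, with no second genotype, treatment or stage, so no test between groups was possible and every value below describes these 2 samples.

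In ChIP-seq, fixed chromatin is sheared and the fragments bound to a protein are enriched with an antibody and sequenced, so a peak marks a place where fragments piled up. In nematodes many transcripts are trans-spliced: a short leader replaces the first stretch of the nascent RNA, and the annotated start then often lies downstream of the place where RNA polymerase began. A summit a short way upstream of an annotated start can therefore lie at or near the promoter itself. Whole worms hold many tissues, and a peak does not say in which of them the protein was bound.

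Several of the strongest members sat on sequence that recurs at other bound sites. A run of 20 identical bases within 50 bp of the summit also occurred at another, non-overlapping summit of the conservative set for 46 of the 319 members (14.4%, 11.0 to 18.7), for 9 of the 10 members of highest signal and for 10 of the highest 20. Through such runs 27 members fell into 10 families. The sequences below are shown because they carry this pattern. Each reaches 50 bases to either side of the summit on build WBcel235 (the RefSeq genome) and is read 5′ to 3′ on the strand of the gene, with the runs found at another member of its family in capitals. The windows are rpl-3 at chrIII:3867532-3867632 on the plus strand, cox-5A at chrIII:12905157-12905257 (plus), mog-4 at chrII:14561807-14561907 (minus), ZC204.13 at chrII:1661430-1661530 (minus), mtcu-2 at chrII:10033629-10033729 (minus), unc-85 at chrII:4701742-4701842 (plus), npp-18 at chrIII:13296451-13296551 (plus), eel-1 at chrIV:3050436-3050536 (minus), rps-24 at chrIV:385490-385590 (plus), ttll-4 at chrIII:10123750-10123850 (plus) and sas-7 at chrIII:10320532-10320632 (plus).
rpl-3: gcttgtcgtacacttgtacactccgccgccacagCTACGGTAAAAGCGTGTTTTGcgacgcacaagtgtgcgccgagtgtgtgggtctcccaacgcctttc
cox-5A: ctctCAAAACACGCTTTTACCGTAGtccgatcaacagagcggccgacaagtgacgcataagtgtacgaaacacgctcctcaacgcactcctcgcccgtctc
mog-4: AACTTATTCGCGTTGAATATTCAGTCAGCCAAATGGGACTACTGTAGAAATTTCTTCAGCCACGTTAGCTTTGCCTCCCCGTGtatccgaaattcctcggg
ZC204.13: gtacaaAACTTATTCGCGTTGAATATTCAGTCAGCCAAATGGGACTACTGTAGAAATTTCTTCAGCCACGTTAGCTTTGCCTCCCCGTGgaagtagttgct
mtcu-2: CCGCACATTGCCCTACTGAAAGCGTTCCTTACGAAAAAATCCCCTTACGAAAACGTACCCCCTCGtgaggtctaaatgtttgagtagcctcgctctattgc
unc-85: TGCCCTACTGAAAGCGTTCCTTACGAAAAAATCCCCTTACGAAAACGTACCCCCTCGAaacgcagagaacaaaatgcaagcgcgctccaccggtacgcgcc
npp-18: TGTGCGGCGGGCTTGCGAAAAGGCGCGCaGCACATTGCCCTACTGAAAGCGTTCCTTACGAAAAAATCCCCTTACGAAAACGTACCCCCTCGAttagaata
eel-1: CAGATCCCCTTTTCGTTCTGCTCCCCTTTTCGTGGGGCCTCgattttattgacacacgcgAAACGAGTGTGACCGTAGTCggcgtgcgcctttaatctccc
rps-24: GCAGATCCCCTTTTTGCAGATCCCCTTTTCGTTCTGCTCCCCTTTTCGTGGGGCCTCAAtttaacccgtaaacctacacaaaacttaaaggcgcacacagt
ttll-4: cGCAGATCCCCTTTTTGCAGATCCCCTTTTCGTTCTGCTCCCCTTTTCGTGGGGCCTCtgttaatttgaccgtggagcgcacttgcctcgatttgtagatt
sas-7: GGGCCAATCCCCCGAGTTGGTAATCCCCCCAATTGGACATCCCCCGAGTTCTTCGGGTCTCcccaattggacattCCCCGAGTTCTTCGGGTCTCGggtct

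In the family of mtcu-2, unc-85, mec-6 and npp-18 the longest identical run between a pair of members was 56 to 64 bp. A further 9 summits of the conservative set, with signals from 240.5 to 1336, shared at least 1 run of 20 bases with this family. The runs shared by any pair of its members occurred at 19 sites in the nuclear genome, and 12 of these (63.2%) lay in a conservative peak. Here and for the other families both counts include the members' own sites, so part of each share was fixed by how the runs were chosen. The mog-4 window shared a run of 83 bp with that of ZC204.13. Another 12 summits shared at least 1 run of 20 bases with this family, and 15 of its 26 genome sites (57.7%) lay in a peak. For eel-1, rps-24, C26B2.7, ttll-4 and oma-2 the runs shared by any pair stood at 65 sites, of which 17 (26.2%) were in a peak. These sites pool different sequences, because oma-2 shared only a run of 20 bp with eel-1 and none with the other members.

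The other families varied in their number of sites and in how many lay in a peak. The strongest member, rpl-3, shared a run of 21 bp with cox-5A in the opposite orientation, and the run had only these 2 sites in the genome. The runs shared by any pair among cnk-1, B0205.1 and B0205.9 had 9 sites, 5 of them in a peak. Those of F13H8.2, sas-7 and C36B1.11 had 69 sites, 24 in a peak (34.8%), and 16 other summits shared them. The run of wwp-1 and icd-2 had 4 sites, and all 4 were in a peak, those of the 2 members included. By contrast, the runs shared by kin-1 and skn-1, mostly alternating C and T, had 316 sites, 39 of them in a peak (12.3%). Both members had low signals, of 162 and 159. Where a sequence has several copies, sequenced fragments can match more than one of them, and how such reads were placed is not given in the sources used here.

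Sharing went with signal. The median signal was 446 for the 46 members that shared a run with another summit and 282 for the other 273. The same order held in each replicate, with medians of 218 against 152 in replicate 1, and the order was the same in replicate 2, where the median of those that shared a run was 214. With the members cut by signal into 4 groups of 79 or 80, from the lowest to the highest, 6.25%, 8.75%, 13.9% and 28.8% shared a run. A copy anywhere in the genome was more common and no more frequent at the summits than beside them. A 20-base run with a second copy anywhere in the genome was present at 127 members (39.8%, 34.6 to 45.3), against 47.5% of windows 200 bp to either side and 51.4% of windows of the same size centred 350 bp upstream of all 17242 autosomal protein-coding genes. Over the 4 groups by signal it was present at 27 of 80, 35 of 80, 25 of 79 and 40 of 80 members. Among the other autosomal peaks 21.5% (19.9 to 23.2) shared a run with another summit, against 10.5% of the summits within 200 bp of a start and 20% of those 500 to 1000 bp upstream. Outside the band, too, the median signal was higher with a shared run, at 303 against 244 among the other autosomal peaks. It was 308 against 243 within 200 bp of a start and 267 against 258 at 500 to 1000 bp upstream.

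The signal of a peak is the authors' value, on their caller's scale. Over the 319 members it ran from 2.06 to 2754, with a median of 305 and quartiles of 220.1 and 455. The summits within 200 bp of a start had a median of 249 (n = 410), those 500 to 1000 bp upstream 258 (n = 240), those in the windows of several genes 316 (n = 532), and all conservative peaks 256. Of the members, 111 (34.8%) were in the strongest 25% of the conservative set and 15 in its strongest 100, while 12 reached 1000 and 247 lay between 150 and 500. Peaks are not replicates of a condition, so these medians are set side by side and not tested.

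The strongest member was rpl-3, the gene for ribosomal protein uL3 of the large subunit. Its signal was 1512 in replicate 1 and 1249.7 in replicate 2, a mean of 1381 ± 186 (SD, n = 2), and its summit stood at -272 bp, where positions are counted from the nearest start and are negative upstream. It was the highest peak of the whole conservative set, at 2754. The second was mog-4, which encodes a pre-mRNA splicing helicase needed for the switch from sperm to oocytes in hermaphrodites, with 1132 and 1114 in the replicates (1123 ± 12.7) and a summit at -258 bp. Another ribosomal gene, rpl-35 (uL29), followed with 1119 and 1006 (1063 ± 79.7), at -443 bp.

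After it came mtcu-2, named by RefSeq as a homolog of MTO1, which in humans acts in the modification of mitochondrial tRNA. Its values were 1024 and 891 (958 ± 94.0), at -466 bp and inside an intron of its neighbour let-268. The cytochrome c oxidase subunit gene cox-5A gave 821 and 725 (773 ± 67.8). The Ras pathway scaffold gene cnk-1 gave 788 and 704 (746 ± 60). All 6 of these genes had the higher value in replicate 1, and their order was the same in both replicates.

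Next came eelo-2, a gene with a peptidase domain, at 707 and 672. The ubiquitin ligase gene eel-1 stood at 716 and 586, and unc-85, which encodes a histone chaperone of the ASF1 kind, at 658 and 536. The small-subunit ribosomal gene rps-24 gave 627 and 557. The values of eelo-2 and eel-1 changed places between the replicates, as did those of unc-85 and rps-24, so neighbours at this level were not ordered beyond their spread. The DNA replication clamp gene pcn-1 was at 537 and 564, and vig-1, an RNA-binding protein gene, at 545 and 503.

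The other 8 of the 20 strongest had replicate signals from 335 to 523. They included eif-3.C, a subunit of translation initiation factor 3 (523 and 417), the zinc finger gene ztf-7 (519.9 and 456), and snr-4, which encodes a core protein of the spliceosomal snRNPs (511 and 374). The splicing factor gene plrg-1 was at 434 and 469. F26F2.7, T21B10.3 and pcyt-2.1, the last an enzyme of phosphatidylethanolamine synthesis, were others. Replicate 1 was the higher in 16 of these 20.

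**Figure D1:**
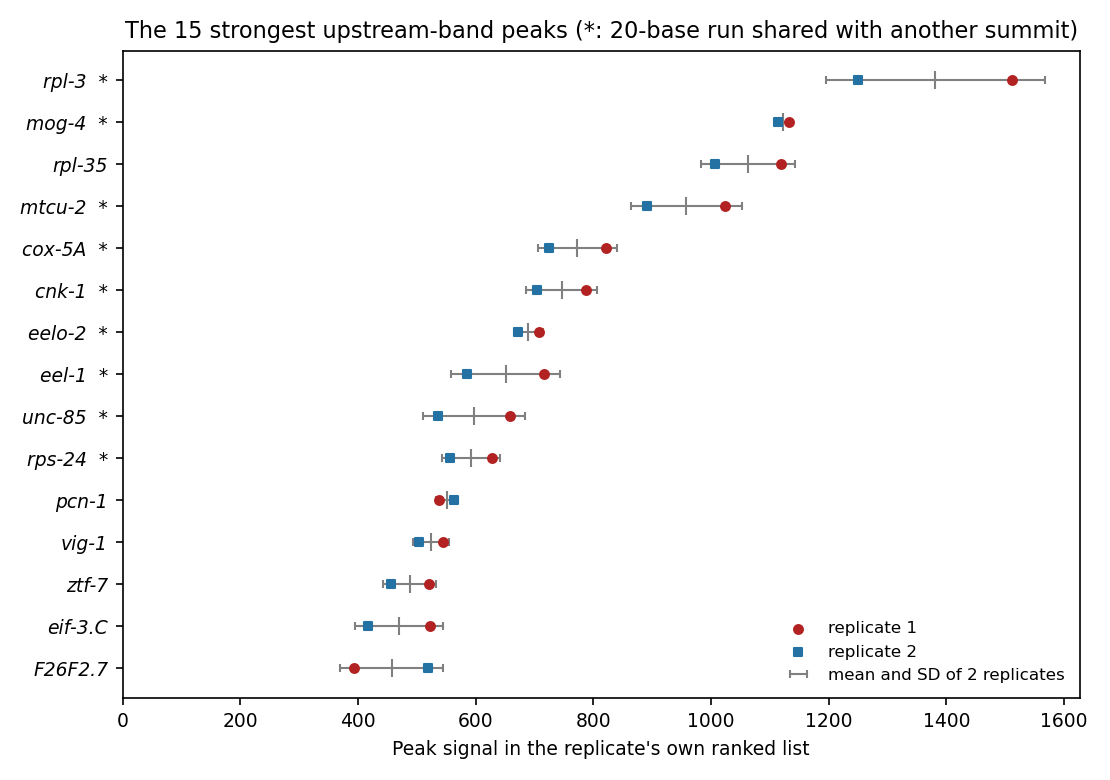
Peak signal in replicate 1 (red circles) and replicate 2 (blue squares) for the 15 strongest upstream peaks, ordered by the authors' signal in the conservative set; grey bars are the mean and SD of 2 replicates and asterisks mark a 20-base run shared with another summit. The rpl-3 peak lies farthest right, at 1512 and 1249.7, and 9 of the first 10 genes carry an asterisk.

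The replicates gave similar values for most members. Both replicates' ranked lists held an overlapping peak for 317 of the 319, with medians of 161 in replicate 1 and 151 in replicate 2. On the log2 scale replicate 1 exceeded replicate 2 by a median of 0.12 (SD 0.48), 98.7% of the ratios lay within 2-fold, and replicate 1 was higher in 194. Across these 317 peaks Spearman's rho was 0.825, a description across sites of the same 2 libraries. Over all conservative peaks 97.7% of the ratios lay within 2-fold and rho was 0.731. The conservative set was itself thresholded on reproducibility between these same 2 replicates, so such likeness was partly fixed in advance. The conservative signal was within 10% of the sum of both replicate signals for 297 members (93.7%). Scaling between the samples is not stated, so the common lean toward replicate 1 is not a measured difference in binding.

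Presence in the thresholded list called from each replicate alone followed signal closely. Part of this was fixed in advance, because the members' signal was close to the sum of the signals in these same replicates. Of the members 268 (84.0%) overlapped a peak of replicate 1's list, 242 (75.9%) one of replicate 2's, and 222 (69.6%, 64.3 to 74.4) both, while 31 were in neither. The shares in both lists were 57.1% (52.2 to 61.8) for summits within 200 bp of a start, 60% (53.7 to 66.0) for those 500 to 1000 bp upstream and 72.6% (68.6 to 76.2) for windows of several genes. Over the 4 groups by signal the number in both lists was 13 of 80 in the lowest (16.2%), then 52 of 80, 77 of 79 (97.5%) and, in the highest, 80 of 80.

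A pair of members had widely different replicate values. The second summit of vig-1, with a signal of 14.0, took 545 from replicate 1 and 22.9 from replicate 2, a log2 ratio of 4.57, but the replicate 1 summit lay 204 bp away, at the gene's stronger site. For kin-14, a tyrosine kinase gene, the values were 8.25 and 72.4, a log2 ratio of -3.13. Beyond these the ratios ran from -0.78 at lec-6, a galectin gene (91.4 and 156), to 1.19 at the second summit of pus-1, a pseudouridine synthase gene (173 and 76.2).

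Summits in the replicates were a median of 11.0 bp from the member summit, and for 22 members 1 or both were more than 100 bp away. The 5 lowest signals were all of this kind: F13H8.2 at 2.06, K10D11.2 at 7.99, vig-1 at 14.0, F43G6.8 at 20.5 and tos-1 at 65.6. At tos-1 the replicate values of 429 and 273 came from summits 209 and 155 bp away, so they describe another site. These 5 members and the weaker pus-1 summit were the only ones whose signal was under 50% of the sum of their replicate values.

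**Figure D2:**
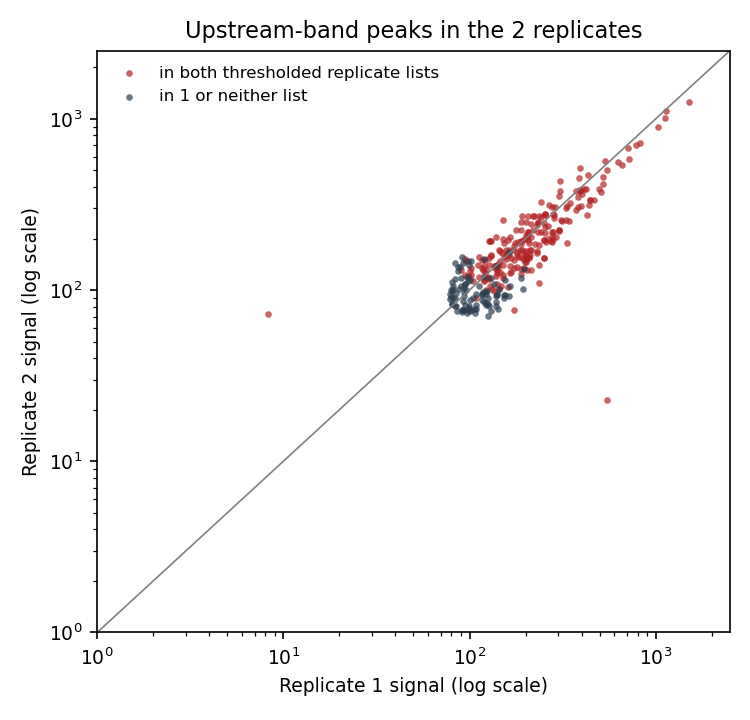
Signal of each upstream peak in replicate 1 (x) and replicate 2 (y), both on log scales, with the line of equality; red points are peaks in both thresholded replicate lists (222 of 319). Most points follow the line, and the 2 far from it are the second vig-1 summit (545 and 22.9) and kin-14 (8.25 and 72.4).

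Within the band the summits crowded toward the gene. The median position was -306 bp (quartiles -390.5 and -252, range -500 to -203), with 150 members from 200 to 300 bp, 100 from 300 to 400 and 69 from 400 to 500. The count in bins of 50 bp fell from 76 at the edge nearest the start to 31 at the far edge, and went on falling from the 91 summits in the neighbouring bin closer to the start. Signal did not follow distance: the medians over the 3 steps were 312, 303 and 312, and rho between distance and signal was -0.03 over 319 peaks.

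The limits of the band cut through a continuous distribution. Just inside the near limit were T28F4.5 at -203 bp with a signal of 403, plrg-1 at -204 bp with 893, and T26G10.1 at -204 bp with 497. Just outside it were nol-56 at -200 bp with 312, and dsh-2 and allo-1, both at -199 bp, with 232 and 173. At the far limit sor-1, eat-6 and mvk-1, all at -500 bp, had 387, 368 and 252, and lin-66 at -501 bp, gmeb-1 and rsu-1 at -504 bp had 423, 348 and 182.

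**Figure D3:**
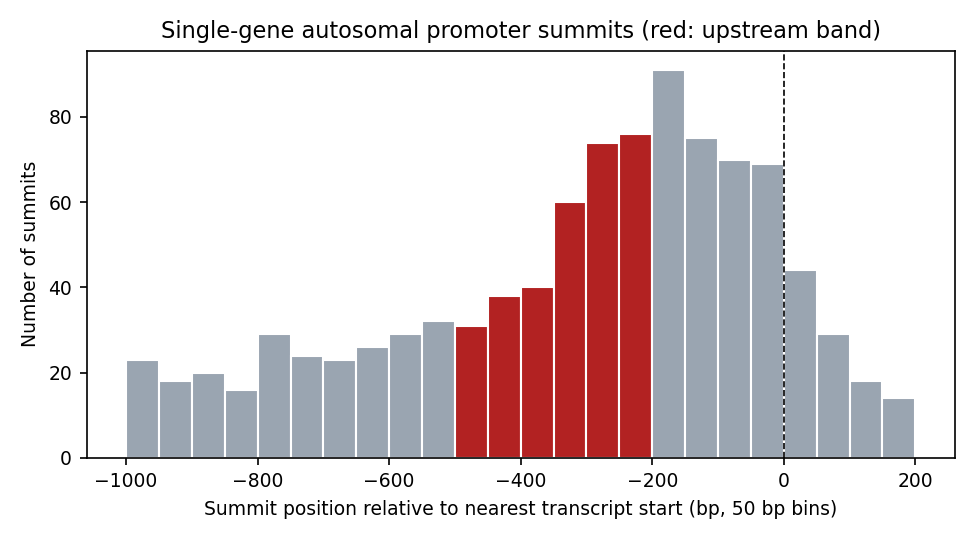
Number of autosomal summits in the promoter window of a single gene by position relative to the nearest transcript start (bins of 50 bp), with the band from 200 to 500 bp upstream in red and the start as a dashed line. Counts rise from 31 at the far edge of the band to 76 at its near edge and reach 91 in the next bin.

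Most member summits lay between genes. No gene was annotated at 238 of them (74.6%, 69.6 to 79.1), against 56.2% (49.9 to 62.4) of those 500 to 1000 bp upstream. The share was 54.9% for summits within 200 bp of a start, a class that reaches into the gene by definition. Another 36 lay in the gene itself, 33 of them in an intron, because the gene has an alternative start farther upstream. The strongest of these was pcyt-2.1, whose summit was at -342 bp from 1 start and 6077 bp inside the gene's outermost one; hlh-30, a regulator of autophagy and lysosome genes, and zip-2, a bZIP factor of the pathogen response, were others, with signals of 491 and 483. The summit fell in a different protein-coding gene at 26 members, of which 10 were in introns, 8 in coding exons, 7 in 3′ UTRs and 1 in a 5′ UTR. The strongest in an exon were nsun-1 (392, a 5′ UTR of W07E6.5) and tag-115 (322, the 3′ UTR of rpl-12).

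Noncoding genes stood near some members. A noncoding gene lay within 200 bp of 48 summits (15%, 11.5 to 19.4), against 9.76% of the summits within 200 bp of a start and 23.3% of those 500 to 1000 bp upstream. These included a small nucleolar RNA gene at 7 members, among them pcyt-2.1, gst-27 and cfim-2, and an snRNA gene at snr-4 and unc-31. Which of the neighbouring genes a peak serves cannot be told from its position. The nearest protein-coding gene upstream was on the same strand for 207 members (64.9%), with a median gap of 725 bp, and on the opposite strand for 112, with a median gap of 2582 bp. Same-strand shares were 69.5% within 200 bp of a start, 57.5% at 500 to 1000 bp upstream and 54.4% over all autosomal protein-coding genes. For the members the rule itself fixes part of this, since a divergent neighbour close by would put the summit in both genes' windows. B0205.1 and B0205.9, which point away from each other across 2611 bp, each had a member of its own, with 393 and 382 at the first and 336 and 308 at the second.

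A pair of member summits was found at 6 genes: F13H8.2, gldi-8, ltah-1.2, pus-1, uba-1 and vig-1. At uba-1, the ubiquitin-activating enzyme gene, the summits stood at -247 and -468 bp from different starts with signals of 326 and 189, and at ltah-1.2 they had 324 and 279. Another 44 genes had a conservative promoter summit outside the band as well. The members were spread over all autosomes, with 71 on chromosome I, 77 on II, 46 on III, 67 on IV and 58 on V. Genes with at least 1 member were, in that order, 2.47%, 2.17%, 1.70%, 1.98% and 1.14% of the protein-coding genes of each.

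The summits were islands of G and C. The sequence within 50 bp of the summit held 48.2% G+C (SD 7.64, n = 319 peaks), against 34.3% in windows centred 200 bp to either side and 34.4% at the same distance upstream of all autosomal genes. The summit was the richer in 295 members (92.5%), by 13.9 percentage points on average. The same difference was 8.29 points for summits within 200 bp of a start, 9.59 for those 500 to 1000 bp upstream and 11.1 for windows of several genes. G+C at the summits themselves was closer, at 46%, 47.8% and 46.6% in these classes. Their side windows held 37.7%, 38.2% and 35.6%, so the larger difference at the members came partly from poorer sides. In windows of 21 bp the profile peaked at the summit itself, at 51.4%, and averaged 34.6% from 200 to 300 bp on the upstream side and 35.9% on the downstream side. G+C was higher at stronger members, from 46.1% in the lowest of the 4 groups by signal to 51.4% in the highest, with rho of 0.25 over 319 peaks. Sequencing itself can favour G+C-rich fragments; its part in these values was not tested.

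**Figure D4:**
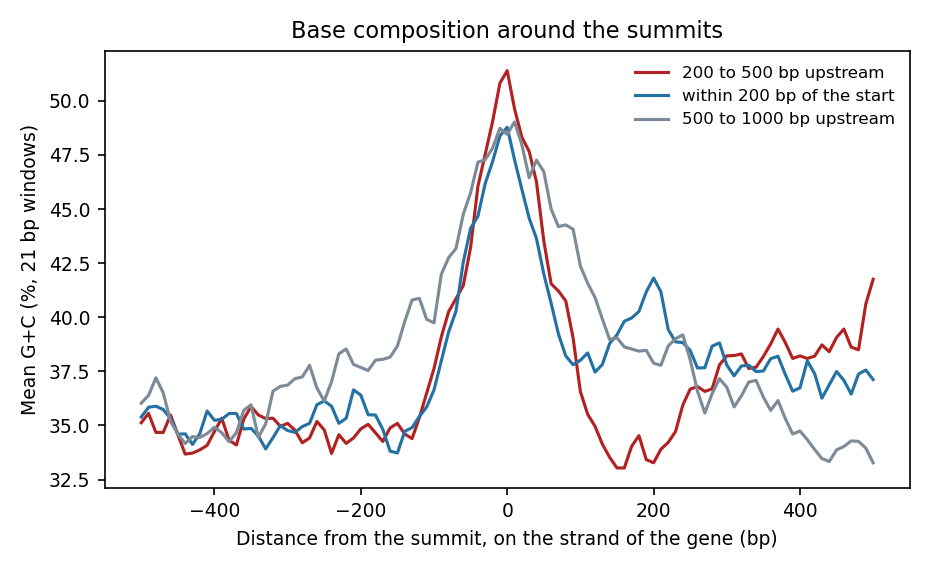
Mean G+C content (%) in 21 bp windows by distance from the summit, oriented on the strand of the gene, for the upstream peaks (red, n = 319), summits within 200 bp of a start (blue, n = 410) and summits 500 to 1000 bp upstream (grey, n = 240). The red line reaches 51.4% at the summit from flanks of 34.6% and 35.9%.

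Short words were counted within 50 bp of the summit on both strands. The 10 leading words of 6 letters were chosen on the other 2368 autosomal peaks as those whose share at the summit most exceeded that at the sides, and were then counted in the members. They overlap one another, in 2 strings: one of alternating G and A (GAGAGA with AGAGAG or AGAGAC), and one that joins CG to AGA (ACGCAG with CGCAGA or AGACGC, and CGTCTC with CGAGAC or GCGAGA), with GCGCCA apart. At least 1 was present at 188 members (58.9%, 53.5 to 64.2), 53.9% of the other autosomal peaks, 21.3% of the side windows and 20% of the windows upstream of all genes. GAGAGA was at 70 members (21.9%), against 7.37% of side windows and 5.81% of the windows upstream of all genes. ACGCAG was at 52 (16.3%), against 2.98% and 2.43%. GCGCCA was at 38 (11.9%), against 1.41% and 1.76%, and the members with it had a median signal of 450.4 against 287 for those without. The other 9 words had smaller gaps, and for AGACGC (287 against 309), for AGAGAC (298 against 306) and for CGTCTC (303 against 306) the members with the word had the lower median.

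Strands were not used alike by all words. TCTGCG read along the gene's strand alone at 37 members and its reverse complement CGCAGA alone at 16, while GAGAGA and TCTCTC were alone at 31 and 36. Of the 11 words chosen for known factors or promoter elements, 1 was GAGAGA, already described. Among the others TTTCGCG, part of the site of E2F factors, was at 26 members (8.15%) against 2.66% of side windows, and CCGCCC, the core of a GC box, at 25 (7.84%) against 2.19%. The E-box CACGTG, the site of many helix-loop-helix factors, was at 13 (4.08%) against 2.51%. Some words were scarcer at the summits than beside them: TATAAA was at 10 members (3.13%) against 11.8%, CCAAT at 42 (13.2%) against 20.2%, and TTTCAG, the acceptor sequence of worm splicing, at 27 (8.46%) against 20.2%. TGATAA, the site of GATA factors, was about as frequent at the summits (8.46%) as at the sides (8.93%). For these 7 words the share upstream of all genes lay within 2 percentage points of that at the sides. Among the other autosomal peaks TATAAA was at 4.65%, CCAAT at 15.3%, TTTCAG at 9.16% and TGATAA at 9.54%. In those peaks TTTCGCG was at 5.32%, CCGCCC at 6.46% and CACGTG at 4.10%, so these patterns were not particular to the band. A match of letters does not show that a factor was bound there.

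A further set of words was taken, after the first results were seen, as those whose share most exceeded in the strongest 592 of the other autosomal peaks that in the weakest 592. The 5 words overlap one another and each holds CG. ACGCGC was present at 57 members (17.9%) and GACGCA at 58 (18.2%), while AACGCG was present at 44 (13.8%) and GCGCGC at 43 (13.5%). CGCGCC was at 54 members (16.9%, 13.2 to 21.4), against 1.10% of side windows and 1.55% of the windows upstream of all genes, and its share over the 4 groups of members by signal was 13.8%, 6.25%, 15.2% and 32.5%. Members with it had a median signal of 439 and those without 282. The shares with AACGCG were 3.75%, 12.5%, 13.9% and 25%. The windows of cnk-1 (chrIII:10270912-10271012, plus strand), eelo-2 (chrIV:17249856-17249956, plus), pcn-1 (chrIV:4049651-4049751, minus) and ztf-7 (chrV:9789987-9790087, minus) are shown with any word of either set in capitals. The cnk-1 window holds words of the first set alone, and those of eelo-2, pcn-1 and ztf-7 hold words of both.
cnk-1: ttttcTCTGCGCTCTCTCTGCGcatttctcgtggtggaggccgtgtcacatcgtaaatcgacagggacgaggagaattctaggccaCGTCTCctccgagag
eelo-2: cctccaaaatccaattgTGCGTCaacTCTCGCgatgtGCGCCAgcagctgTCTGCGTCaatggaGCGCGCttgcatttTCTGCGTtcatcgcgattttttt
pcn-1: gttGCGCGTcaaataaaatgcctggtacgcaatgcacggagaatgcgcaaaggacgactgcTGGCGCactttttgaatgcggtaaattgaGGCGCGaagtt
ztf-7: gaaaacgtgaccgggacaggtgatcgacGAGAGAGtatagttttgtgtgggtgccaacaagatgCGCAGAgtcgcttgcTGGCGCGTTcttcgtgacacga

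The 319 summits belonged to 313 of 17242 autosomal protein-coding genes, 1.82% of them, and a promoter summit of any position was present at 11.1%. These 2 shares are the background for the lists below. Of 37 lists, 24 had at least 1 member, and 76 of the 313 genes were in a list. The lists were drawn by gene name, so a gene with a sequence-type name or another symbol is missed, and each count covers the listed names alone. A count of 0 in a short list cannot be told from the background share. Cytosolic ribosomal proteins had a member at 13 of 79 autosomal genes (16.5%, 9.88 to 26.1), and a promoter summit of any position at 55 of 79. After rpl-3, rpl-35 and rps-24, the strongest were rpl-41.2 (265 and 237 in the replicates) and rpl-14 (276 and 191). The lowest were rpl-6 (99.9 and 141) and rps-21 (139.6 and 85.2), below rps-4, rpl-32, rps-7, rps-17, rpl-38 and rps-11. Without members whose window holds a repeated 20-base run, 5 of the 13 remained: rpl-35, rps-4, rps-17, rpl-38 and rpl-6.

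Other parts of protein synthesis and turnover followed. All 3 of the 37 translation factors with a member were subunits of initiation factor 3: eif-3.C, eif-3.B (201 and 168) and eif-3.G (162 and 92.3). None of 70 mitochondrial ribosomal protein genes, 31 aminoacyl-tRNA synthetase genes or 33 proteasome genes had one, although 16, 8 and 15 of them had a summit elsewhere in a promoter window. The intervals for these counts of 0 reach 5.2%, 11.0% and 10.4%, so each includes the background of 1.82%. Of 62 ubiquitin and SUMO genes, 6 had a member (9.68%, 4.51 to 19.5). They comprised smo-1, which encodes SUMO (301 and 221), ubc-9, the SUMO-conjugating enzyme (286 and 263), the cullin gene cul-4 (220.0 and 269), ubc-3, uba-1 and the polyubiquitin gene ubq-1 (193 and 102).

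Nuclear functions gave small counts. Of 62 chromatin regulators 5 had a member, with set-4, a histone H4 lysine methyltransferase gene, at 285 and 275, and set-2, which encodes a histone H3 lysine 4 methyltransferase, at 250.1 and 247. Nuclear pore and transport genes had 4 of 40, led by npp-18 (266 and 313) and the importin gene imb-3 (291 and 204). The splicing list, drawn by name, had snr-4 of 39 genes with a member, and 22 with a promoter summit. The splicing genes mog-4, plrg-1 and sluh-7 (209.6) are members outside that list. No histone gene of 75 and no meiosis gene of 37 had a member, against 22 and 18 with a summit of any position. RNA polymerase II transcription had 2 of 47: ama-1, the largest subunit (127 and 193), and taf-10 (144 and 101).

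Membrane, energy and germline lists followed. The vacuolar ATPase, autophagy and lysosome list had 6 of 53 (11.3%, 5.29 to 22.6), among them both Atg8 family genes, lgg-2 (188 and 157) and lgg-1 (235 in replicate 1, higher than replicate 2 by 1.10 on the log2 scale). The respiratory chain and ATP synthase list had 3 of 38: cox-5A, cyc-1 (234 and 219.6) and cox-4 (206 and 219). Members outside the list with such products were F36A2.7 (cytochrome c oxidase subunit, signal 709), Y82E9BR.3 (ATP synthase c subunit, 570.5) and F58F12.1 (ATP synthase delta subunit, 240.2). Germline RNA regulators had 5 of 47, with mog-4 followed by puf-11 (205 and 269), mex-3 (204 and 130.3), oma-2 and gld-1 (101 and 87.0). Small RNA pathway genes had 3 of 42, which were ego-1 (189 and 187), csr-1 (89.9 and 131) and nrde-4. The nrde-4 interval, with a signal of 226, overlapped a ranked peak of replicate 2 (108) and none of replicate 1. Its replicate 1 value is therefore missing, which does not show that binding was absent there. The main cytosolic HSP70 gene hsp-1 had 403 and 364, in an interval with 8 summits.

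Large gene families gave counts from 0 to 5. Chemoreceptors had 2 of 1331 (0.150%, 0.0412 to 0.546), below the background of 1.82%. C-type lectins had 1 of 237, detoxification enzymes 1 of 171, the glutathione transferase gene gst-27 (395 and 309), and nuclear hormone receptors 5 of 246 (2.03%), near the background and led by the fat metabolism regulator nhr-49 (146 and 128). Collagens (0 of 134), genes with an F-box gene name (0 of 305), homeobox genes (0 of 45) and neuropeptides and insulins (0 of 106) had none. RefSeq names an F-box protein for members outside that list, Y32B12B.2 (553), C27F2.7 (404) and F48G7.4 (232). Few of these genes had a promoter summit of any position either, from 1 neuropeptide gene to 15 nuclear hormone receptor genes. Of the tissue markers, a member was found at 1 of 3 for the pharynx (pha-4, 163 and 171), 1 of 8 for neurons (unc-31, 197 and 166) and 1 of 8 for the germ line (gld-1). None was found at the 4 of intestine, 6 of body wall muscle, 3 of hypodermis and 5 of sperm. Lists of 3 to 8 genes are too short to be read against 1.82%.

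**Figure D5:**
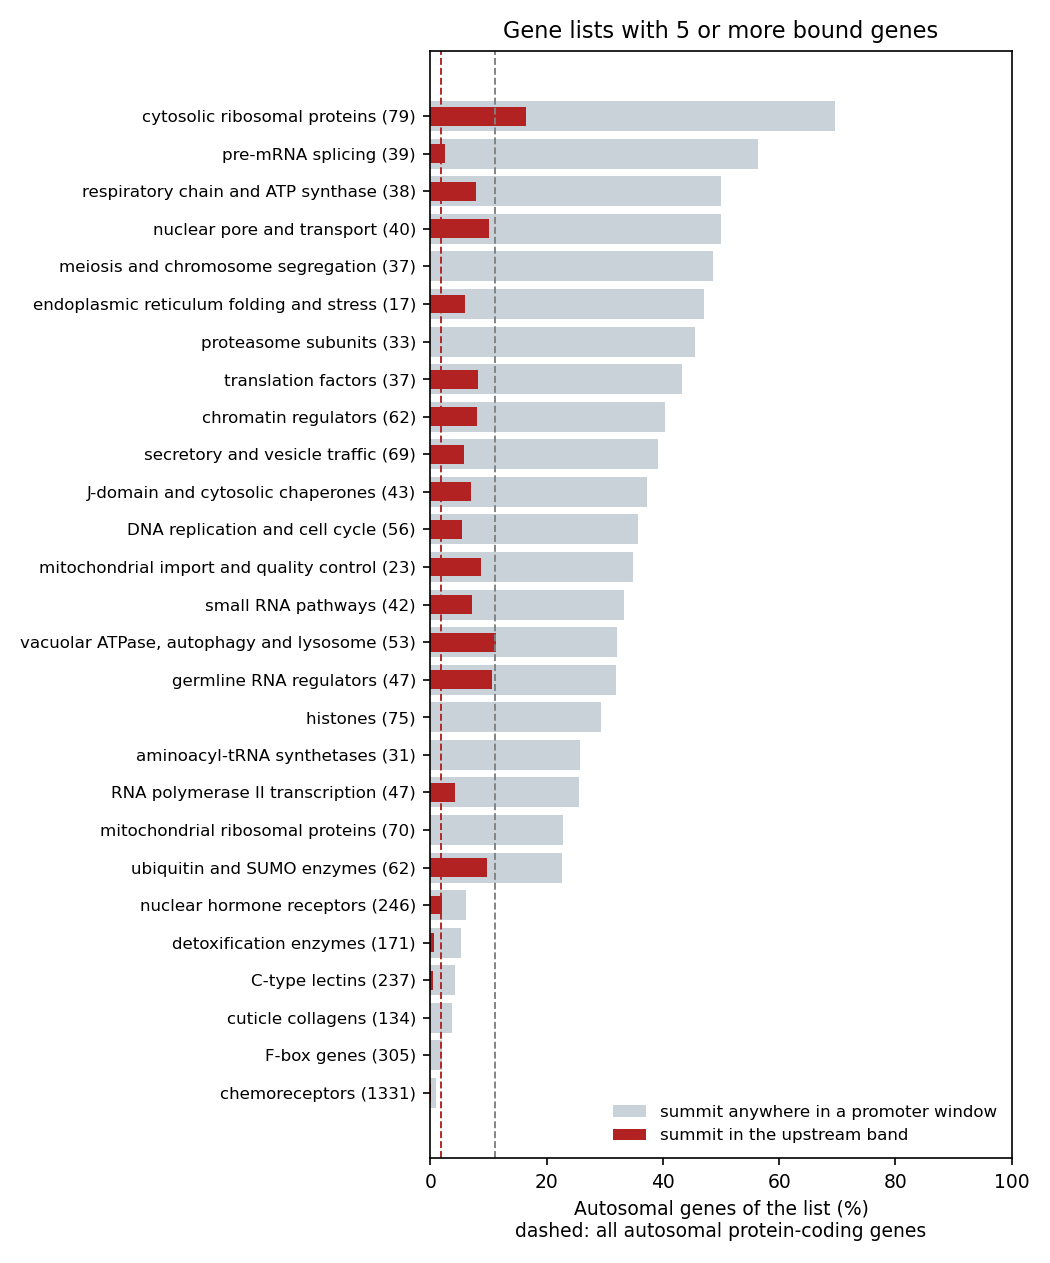
Share of the autosomal genes of each list with a summit in the band 200 to 500 bp upstream (red) and with a summit anywhere in a promoter window (grey), for lists with 5 or more bound genes; list sizes are in parentheses. Dashed lines mark 1.82% and 11.1%, the shares over all autosomal protein-coding genes, and the ribosomal proteins have the longest bars of both kinds.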

How the data were processed

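ChIP-seq peak lists of 2 biological replicates were used. From each replicate the authors made, per the file headers, a ranked and a thresholded list, and thresholded sets from both, on ce11; how reads were aligned, peaks called and repeated sequence handled is not stated in the sources used. The deposited signal is the caller's value, with no scaling between samples stated. The deposited score (a scaled irreproducible discovery rate) and the −log10 values deposited by the authors decided no result. Peak lists carry no counts, so depth is unknown and the number of peaks limits precision. A possible control is not analysed here.

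Summits were placed with Ensembl release 115 (WBcel235), and sequence came from the RefSeq genome of that assembly, with its product names. A replicate's signal is that of the overlapping ranked peak (at least 1 bp) with the nearest summit. Words and runs were read within 50 bp of the summit; copies of a run closer than 300 bp count as 1 site. Named genes were the 20 strongest (1 is not reported here), up to 4 per list, 3 on each side of each limit, the extremes of replicate ratio and signal, genes with several members, and the leading carriers of words; family members, B0205.1, B0205.9 the genes named for introns and noncoding RNAs and those named outside a list were chosen after their values were seen. Members and lists were chosen with earlier results of these data known. The 20-base runs were examined after these data were seen. No test was made, because there is 1 group of 2 samples. Placement and counting were tested on simulated data. Python 3.11.15, numpy 2.4.6, pandas 2.3.3, scipy 1.17.1 and matplotlib 3.10.9 were used.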

Additional observations from a re-analysis of the deposited data

How the results depend on the processing

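Alternatives other than the last below gave from 266 to 396 members, and 272 with promoter windows reaching farther upstream, 337 with summits near tRNA genes kept. Lists called from replicate 2 alone and replicate 1 alone gave, in that order, 309 and 310 members, sharing 223 and 249 of the 313 genes; a member signal 1.11 and 1.21 times that of summits within 200 bp of a start, against 1.23; a median position of -306 and -305 bp; 11 and 12 ribosomal protein genes; and a G+C excess of 11.7 and 14.4 points. The median position was -303 bp in the larger set, -302 bp in the set without its weakest 25% and -312 bp from interval midpoints. The G+C excess was 10 points within 100 bp of the summit and 11.7 with side windows 400 bp away. The share in both replicate lists was 56.6% in the larger set and 80.8% without the weakest 25%. Leaving out peaks with a 20-base run repeated in the genome, chosen after seeing the data, left 192 members, 5 ribosomal protein genes instead of 13, and a median position of -309.5 bp; fewer peaks enter by construction. The causes of the other shifts were not tested. Of 57 alternative values 42 stayed within their limits and 15 moved, and most have no direction that could reverse. The limits differed between results, so the tally mixes unlike measures. For position the limit was the SD between the lists of replicate 1 and replicate 2, 0.707 bp, so -305 bp counted as moved. No paired analysis was possible because there is only 1 group. Depth cannot be judged from peak lists.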
